A study of Mus musculus with 4 samples.

Results

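The proteasome genes of mouse skeletal muscle were examined in gastrocnemius of mice with muscle overexpression of the nuclear receptor PPARα. The set comprised all genes whose symbol in the probe annotation starts with Psma, Psmb, Psmc, Psmd, Psme, Psmf or Psmg followed by a number. Only probe sets annotated to a single symbol were used, and each gene was represented by its brightest probe set. This gave 48 genes of the 12393 genes with such a probe set, and 47 of the 48 passed a filter on low signal (a mean signal over the 4 arrays of at least 455.3, the 40th percentile of all probe sets). Psma8, a testis alpha subunit, did not pass, with signals of 63.3 and 74.4 in controls and 113 and 171.2 in transgenic muscle. Psme2, a subunit of the interferon-inducible activator, was covered by 1 probe set that is annotated to a second gene as well, and it was not analysed here. Psmc3ip, a meiotic recombination protein, and Psme3ip1, a nuclear protein, entered the set by their letters and are kept apart from the subunits.

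The MCK-PPARa mice carry a PPARα transgene expressed in muscle, and MCK in the line's name is the muscle creatine kinase promoter, which is active in striated muscle. The controls (NTG) were their littermates without the transgene. Each genotype was represented by 2 arrays, 1 per RNA sample. The sources used here do not give strain, age, sex, diet or the number of transgenic lines. No label ties an array to a numbered animal, so all p-values measure the spread between these samples, which may be technical in part.

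The proteasome is the protease that degrades proteins tagged with ubiquitin. Its core particle is a barrel of stacked rings: the outer alpha rings form the gate, and the inner beta rings carry the catalytic sites of Psmb5 (chymotrypsin-like), Psmb6 (caspase-like) and Psmb7 (trypsin-like). The regulatory particle caps the barrel, recognises ubiquitin, removes it and unfolds the substrate with a ring of ATPases. Under interferon the catalytic subunits are replaced during assembly by Psmb8, Psmb9 and Psmb10, which form the immunoproteasome. In skeletal muscle the ubiquitin-proteasome system removes myofibrillar proteins and is best known for its part in muscle wasting.

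The stretches of promoter sequence are shown here first, because the values given later refer to them. They are from RefSeq (mouse build GRCm38.p6), each on the strand named, with selected motif matches in capitals. Psmb9 and the peptide transporter gene Tap1 are transcribed in opposite directions from starts 225 bases apart (chr17:34187331-34187555, minus strand), and Psma2 and the mitochondrial ribosomal protein gene Mrpl32 from starts 204 bases apart (chr13:14613038-14613241, plus strand). The capitals mark a GC box and a CCAAT box, each in either orientation. Psme4 (chr11:30771525-30771774, plus strand) and Psmb5 (chr14:54617996-54618245, minus strand) are shown for the 250 bases before their start, since these had the lowest p-values of all members. The capitals mark an ETS core in Psme4 and an antioxidant response element core in Psmb5. Matches of other motifs in the Psme4 stretch, among them a GC box that overlaps the ETS core, are left in lower case. Each shared stretch is printed from the start of the neighbour to that of the proteasome gene.
Tap1 to Psmb9: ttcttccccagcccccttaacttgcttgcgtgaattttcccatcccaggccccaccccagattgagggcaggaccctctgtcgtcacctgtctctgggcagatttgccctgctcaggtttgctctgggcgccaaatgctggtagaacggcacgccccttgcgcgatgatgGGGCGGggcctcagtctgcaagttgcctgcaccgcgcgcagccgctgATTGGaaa
Mrpl32 to Psma2: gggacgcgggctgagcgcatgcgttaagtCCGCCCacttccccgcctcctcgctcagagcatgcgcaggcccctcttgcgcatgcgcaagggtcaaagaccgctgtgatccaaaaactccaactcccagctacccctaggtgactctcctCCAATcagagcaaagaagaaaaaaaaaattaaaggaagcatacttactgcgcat
Psme4: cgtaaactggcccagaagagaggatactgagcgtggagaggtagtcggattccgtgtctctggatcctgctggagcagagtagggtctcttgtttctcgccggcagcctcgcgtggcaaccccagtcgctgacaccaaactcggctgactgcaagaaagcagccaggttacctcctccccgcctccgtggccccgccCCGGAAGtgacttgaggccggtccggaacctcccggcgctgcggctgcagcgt
Psmb5: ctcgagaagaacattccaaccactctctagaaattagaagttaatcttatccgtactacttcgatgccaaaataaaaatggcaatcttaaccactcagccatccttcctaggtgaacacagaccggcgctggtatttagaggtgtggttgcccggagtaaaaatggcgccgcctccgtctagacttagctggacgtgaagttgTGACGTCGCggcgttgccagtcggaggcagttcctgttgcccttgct

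The intensities were deposited as linear signals scaled by the authors, with a median of 581.5 to 700.3 per array. The 10 skeletal muscle markers were bright on every array, with summed signals of 1346310 to 1466220 in NTG and 1422260 to 1650600 in MCK-PPARa. Ppara itself had signals of 633.4 and 2674.1 in NTG against 7969.3 and 15226.2 in MCK-PPARa, 8.02-fold higher (log2 difference 3.0 ± 0.62 SE), with a limma adjusted p of 0.21. Both transgenic arrays lay above both control arrays. Markers of other cell types also differed in level without passing the test. All 9 tested macrophage and immune markers were above 0 (beside 55.5% of all genes), from 0.06 (Cd68) to 1.12 (Cd52). Cd52 and Cd79a passed the filter only with the transgenic arrays counted. All 4 tested adipocyte markers were above 0 as well, with a summed signal of 7517.4 to 7833.2 in NTG and 17792.8 to 28864.7 in MCK-PPARa. Fabp4 alone gave 4185.9 and 3820.5 of this sum in NTG and 21784.1 and 10838.9 in MCK-PPARa. Of the endothelial markers 5 of 6 were above 0, and of the fibroblast markers 4 of 6, with Pdgfra lower on both transgenic arrays (log2 -0.90 ± 0.37 SE). In RNA from whole muscle, more or fewer cells of a type and more or less RNA per cell cannot be told apart.

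No proteasome gene passed the test between genotypes. Differences are given as the log2 value in MCK-PPARa minus that in NTG, after an offset of 64.16 was added to each signal, and a change was called where the limma adjusted p was 0.05 or lower over all 8402 genes tested. At that threshold 0 of 47 members and 5 of all genes (0.0595%) were called. At an unadjusted p under 0.05 there were again 0 members, beside 490 of all genes (5.83%). The median difference over the members was 0.09 and the range was -0.75 to 1.15, beside a median of 0.05 over all genes. Of the 47, 26 lay above 0 (55.3%, beside 55.5% of all genes) and 21 below. Both MCK-PPARa arrays were above both NTG arrays for 15 members (31.9%, beside 20.4% of all genes) and below them for 5 (10.6%, beside 13.8%), while the arrays of the 2 genotypes overlapped for 27. Among the 15, Psmb9 and Psmd10 passed the filter only with the transgenic arrays counted. The 95% interval lay inside a 2-fold change in either direction for 20 members (42.6%, beside 29.9% of all genes). For the other members a change of 2-fold was within the interval.

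**Figure D1:**
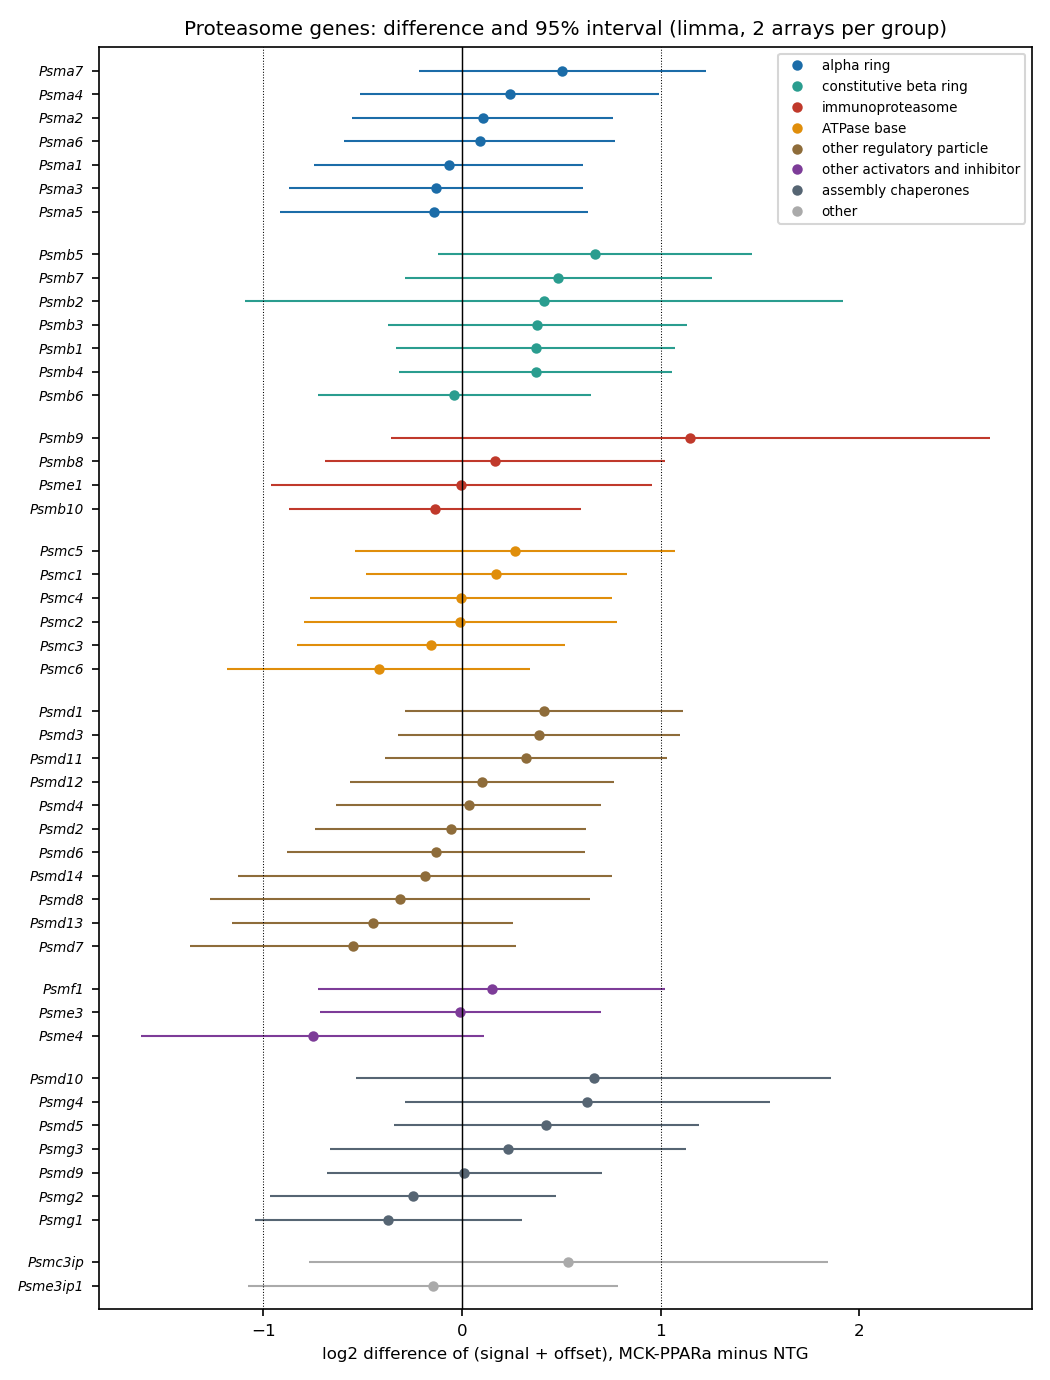
Log2 difference between MCK-PPARa and NTG (horizontal axis) for the 47 proteasome genes past the filter, grouped and coloured by class, with 95% intervals from limma (2 arrays per group). Dotted lines mark a 2-fold difference in either direction. Points range from -0.75 (Psme4) to 1.15 (Psmb9) and every interval crosses 0.

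Within the core particle, members of the beta ring lay above those of the alpha ring on average. The 14 core genes past the filter had a median difference of 0.30, with 10 above 0, and a median of 0.13 without NTG replicate 2. The 7 alpha ring genes had a median of 0.09 (-0.01 after the arrays were centred on their medians) and the 7 constitutive beta ring genes 0.38, with 6 of those 7 above 0 (beside 55.5% of all genes) and 4 of 7 higher in both MCK-PPARa arrays (beside 20.4% of all genes). None passed the test. The size of the beta ring median was set in part by single arrays: it was 0.15 for replicate 1 alone, 0.58 for replicate 2 alone and 0.19 without NTG replicate 2. It was 0.28 after such centring, 0.28 with the mean of all probe sets of a gene and 0.45 after quantile normalization. The difference between the rings was not tested.

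Psmb5, the chymotrypsin-like subunit, had signals of 17576.3 and 12187 in NTG against 19543.2 and 27877.6 in MCK-PPARa. Both transgenic arrays were above both controls, by 1.59-fold on average (log2 0.67 ± 0.34 SE, 95% interval -0.12 to 1.46, limma adjusted p 0.90). The replicate 1 arrays differed by 0.15 and the replicate 2 arrays by 1.19. Psmb7, the trypsin-like subunit, had signals of 51691.4 and 44477.4 against 55019.9 and 81935.7, again higher on both transgenic arrays (log2 0.49 ± 0.33 SE, interval -0.29 to 1.26). Here too the distance lay mostly between the replicate 2 arrays, 0.88 against 0.09 for replicate 1. Psmb6, the caspase-like subunit, had signals of 14945.5 and 14444.4 against 12724.4 and 16092.7, and the transgenic arrays lay on either side of the controls (log2 -0.04 ± 0.30 SE, interval -0.73 to 0.65, turning to 0.015 after quantile normalization). The structural beta subunits Psmb1, with 14739.5 and 11460.9 against 18116.6 and 15611.2, and Psmb4, with 9993.8 and 8007.8 against 11134.1 and 12041.2, were higher on both transgenic arrays, each with a log2 difference of 0.37. Psmb3, another structural subunit, overlapped, with 11221.1 and 7613.4 against 13368.9 and 10849.8 (log2 0.38 ± 0.32 SE). These values leaned on NTG replicate 2, the lowest array for each of Psmb1, Psmb3, Psmb4 and Psmb5: without it they were 0.19, 0.10, 0.21 and 0.41. Without MCK-PPARa replicate 2, Psmb7 was at 0.20 and Psmb5 at 0.42. A second probe set past the filter gave 0.11 for Psmb1, 0.17 for Psmb3 and 0.11 for Psmb4, each with the genotypes overlapping.

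Of the alpha ring, Psma7 differed most, with signals of 5869.2 and 4103.3 in NTG against 7221.7 and 6774.9 in MCK-PPARa. Both transgenic arrays were higher (log2 0.51 ± 0.31 SE, interval -0.22 to 1.23, limma adjusted p 0.96), but a second probe set for the gene gave 0.09, and the difference was 0.25 without NTG replicate 2. Psma2 was higher on both transgenic arrays by a small margin, with 8162.3 and 7611.5 against 8715.7 and 8235.8 (log2 0.10 ± 0.28 SE). Psma4 stood out on 1 array, with 6821.3 and 7472.7 in NTG, 6797.1 on MCK-PPARa replicate 1 and 10478.3 on replicate 2. Psma3 and Psma5 were highest on NTG replicate 1, with 18680.5 and 7500.8, and their log2 differences were -0.13 and -0.14. Without that array both turned positive, to 0.14 and 0.20.

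**Figure D2:**
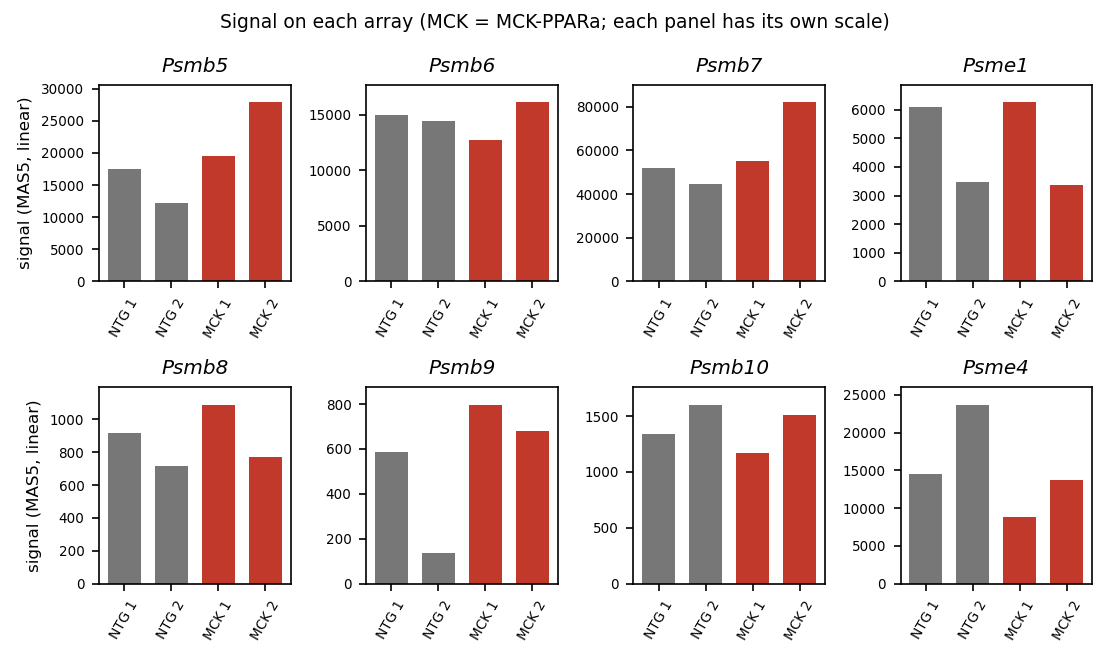
Signal on each array (vertical axes, linear MAS5 units starting at 0, a separate scale per panel) for the constitutive catalytic subunits, the immunoproteasome genes and Psme4, with NTG arrays in grey and MCK-PPARa arrays in red. Psmb9 is low on NTG replicate 2 alone (136.4), Psme1 is high on the replicate 1 array of each genotype, and Psme4 is lower on both MCK-PPARa arrays.

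No immunoproteasome gene passed the test, and the genes had no common direction. The 4 genes analysed had a median difference of 0.08, and of -0.02 after median centring. Of these, 2 were above 0 (beside 55.5% of all genes) and 1 was higher on both transgenic arrays (beside 20.4%). Psmb8, the inducible counterpart of Psmb5, had signals of 914.3 and 718.6 in NTG against 1089.8 and 772.7 in MCK-PPARa, which overlap (log2 0.17 ± 0.37 SE, interval -0.69 to 1.02). Psmb10, the counterpart of Psmb7, had 1336.3 and 1602.1 against 1165.6 and 1508.9, also overlapping (log2 -0.14 ± 0.32 SE, interval -0.87 to 0.60). Psme1, a subunit of the interferon-inducible activator ring, had 6096.7 and 3461.3 against 6255.1 and 3359.1 (log2 -0.00 ± 0.41 SE, interval -0.96 to 0.96, turning to 0.041 after quantile normalization). In each genotype its replicate 1 array was the higher, by 0.81 in NTG and 0.88 in MCK-PPARa on the log2 scale.

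Psmb9, the counterpart of Psmb6, had the widest difference of all members. Its signals were 585.2 and 136.4 in NTG against 797.3 and 678.5 in MCK-PPARa, and it passed the filter only with the transgenic arrays counted. Both transgenic arrays were higher, by 2.22-fold on average, with a wide error (log2 1.15 ± 0.65 SE, interval -0.36 to 2.65, limma adjusted p 0.95). The value rests on the low NTG replicate 2 array: without it the log2 difference was 0.30. It was 0.72 with an offset of 50% of the median, and it was 0.41 for replicate 1 alone and 1.89 for replicate 2 alone. Tap1, which shares the stretch of promoter shown above, had signals of 588.1 and 773.2 against 1043 and 562, so it was not low on NTG replicate 2, and its genotypes overlapped (log2 0.17 ± 0.44 SE). The 9 immune markers tested had a median of 0.47, and their summed signal was 10906.8 and 11580.5 in NTG against 14279 and 15691.3 in MCK-PPARa. Among them Cd52, a lymphocyte and macrophage surface protein, had 396.7 and 276.7 against 771 and 819.1 (limma adjusted p 0.83). Cd52 and Cd79a, another of the 9, passed the filter only with the transgenic arrays counted. The defining markers Ptprc, Itgam and Cd3e were below the filter. The part of these cells in the immunoproteasome values was not tested.

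Setting each inducible subunit against the one it replaces gave no common direction. The log2 difference of the inducible subunit minus that of the constitutive one was -0.50 for Psmb8 against Psmb5, 1.19 for Psmb9 against Psmb6 and -0.62 for Psmb10 against Psmb7. For Psmb8 against Psmb5 the distance lay on MCK-PPARa replicate 2 (-0.99 from the NTG mean, beside -0.02 on replicate 1). For Psmb9 against Psmb6 NTG replicates 1 and 2 lay at 0.82 and -0.82, and the transgenic arrays at 1.46 and 0.91. For Psmb10 against Psmb7 both transgenic arrays lay below both controls, at -0.51 and -0.73 beside -0.23 and 0.23.

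The regulatory particle had a median close to that of all genes. Its 17 genes had a median of -0.01, with 7 above 0 and 10 below, 4 higher and 3 lower on both transgenic arrays (beside 20.4% and 13.8% of all genes), and no call. The median was -0.11 after median centring and 0.03 after quantile normalization. Among the 6 ATPases, Psmc1 was higher on both transgenic arrays by a small margin (4358.8 and 4322.8 against 4916.6 and 4889.5, log2 0.17 ± 0.28 SE) and Psmc3 lower (15684.9 and 16441.1 against 13315.9 and 15634.7, log2 -0.15 ± 0.29 SE). Psmc6 had 3469.8 and 4936 in NTG against 3587 and 2642.1 in MCK-PPARa, and Psmc5 6488.9 and 6196.9 against 10079.1 and 5787.9. The genotypes overlapped for both.

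Of the other regulatory particle genes, Psmd7, a scaffold partner of the deubiquitinase Psmd14, had the lowest value. Its signals were 4509.1 and 4166.1 in NTG against 3948.7 and 2190.8 in MCK-PPARa, lower on both transgenic arrays (log2 -0.55 ± 0.35 SE, interval -1.37 to 0.27, limma adjusted p 0.96). Without MCK-PPARa replicate 2 it was -0.13. Psmd7 probe sets below the filter went the other way, at 0.37 and 1.41. Psmd13, a lid subunit, was also lower on both, with 3362.5 and 4499.6 against 2991.1 and 2682 (log2 -0.45 ± 0.31 SE), and at -0.24 without NTG replicate 2. A second probe set of Psmd13 gave -0.12, with the genotypes overlapping. Psmd1, Psmd3 and Psmd11 were higher on both transgenic arrays. Psmd1, a large scaffold that receives ubiquitin receptors, had 10517.2 and 11229.1 against 12580.8 and 16678.8 (log2 0.41 ± 0.30 SE). The lid subunit Psmd3 had 4122 and 3617.2 against 4376.2 and 5869.7 (log2 0.39 ± 0.31 SE). The lid subunit Psmd11 had 20792.3 and 15446.6 against 22730.2 and 22066.5 (log2 0.32 ± 0.31 SE). Its other 4 probe sets past the filter lay between -0.76 and 0.13, and the mean of these and the brightest gave -0.063. Psmd11 was at 0.11 without NTG replicate 2, and Psmd1 and Psmd3 were at 0.21 and 0.18 without MCK-PPARa replicate 2.

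**Figure D3:**
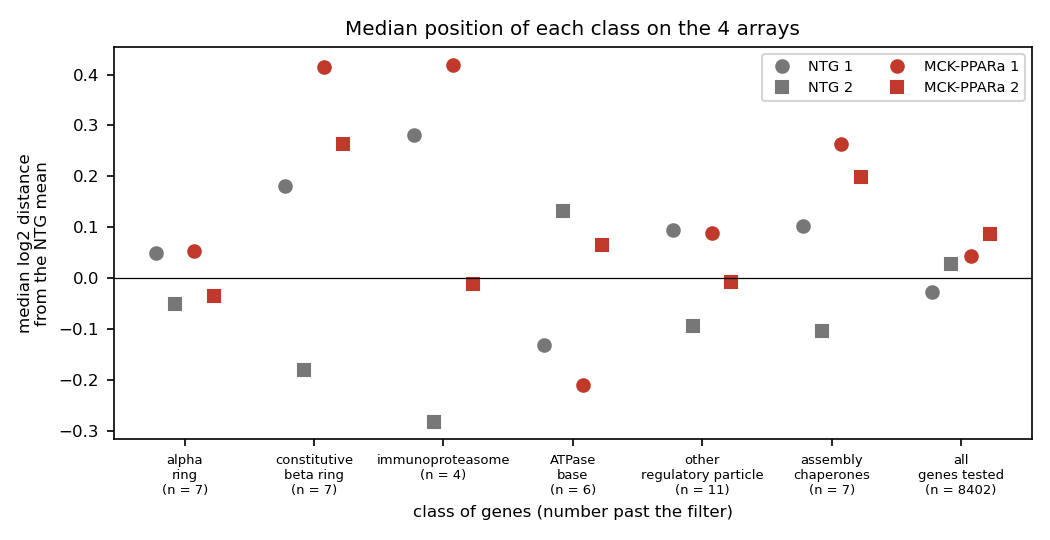
Median log2 distance from the NTG mean (vertical axis) of the genes of each class on each of the 4 arrays, with circles for replicate 1 and squares for replicate 2, and the number of genes under each class. The beta ring lies at 0.18 and -0.18 on the NTG arrays and at 0.42 and 0.26 on the MCK-PPARa arrays, while all genes tested lie within 0.09 of 0.

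Psme4 had the lowest p-value of the 47 members. It encodes a large nuclear cap of the core particle that opens the gate without ubiquitin. Its signals were 14459.6 and 23692.4 in NTG against 8806.9 and 13684.2 in MCK-PPARa. Both transgenic arrays were below both controls, by 1.68-fold on average (log2 -0.75 ± 0.37 SE, interval -1.61 to 0.11, unadjusted p 0.0798, limma adjusted p 0.90). The distance was alike for replicate 1 (-0.71) and replicate 2 (-0.79). It ranged from -1.11 to -0.40 when 1 array was left out, and was smallest without NTG replicate 2. All 3 probe sets of the gene were lower on both transgenic arrays: the second had 11505.7 and 19658.9 against 8031.9 and 8210 (log2 -0.88 ± 0.35 SE, limma adjusted p 0.80 over 12453 probe sets) and the third 12047.7 and 14451.1 against 7570.3 and 9644.2 (log2 -0.62 ± 0.31 SE). Psme3, the nuclear activator ring of the same family as Psme1, had 2360.4 and 1893 against 2313.5 and 1910.5, with a log2 difference of -0.01 ± 0.31 SE. Psmf1, an inhibitor of the core particle, had 786.6 and 1461.4 against 1168.8 and 1229.7 (log2 0.15 ± 0.38 SE), so that both transgenic arrays lay between the controls.

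The assembly chaperones, which build the rings and the ATPase base and leave the finished particle, had a median of 0.23 over 7 genes, with 4 higher and 1 lower on both transgenic arrays (beside 20.4% and 13.8% of all genes). The median was 0.05 without NTG replicate 2 and 0.01 at a filter at the 60th percentile. Psmg4, which helps to build the alpha ring, had 2080.4 and 967.4 against 2362.8 and 2117.3 (log2 0.63 ± 0.40 SE), with NTG replicate 2 apart from the other arrays and a difference of 0.10 without it. The ATPase chaperones Psmd5, with 1260.9 and 1913.2 against 1921.6 and 2314.3, and Psmd10, with 442.1 and 279.1 against 559.5 and 633.3, were higher on both transgenic arrays (log2 0.43 ± 0.33 and 0.66 ± 0.52 SE). Psmd5 was at 0.14 without NTG replicate 1 and Psmd10 at 0.38 without NTG replicate 2. Psmd10 passed the filter only with the transgenic arrays counted. Its difference was 0.75 with an offset of 1% of the median and 0.44 with 50%. Psmg1, an alpha ring chaperone, was lower on both, with 2189.7 and 2028.2 against 1607 and 1624.8 (log2 -0.37 ± 0.29 SE). Its partner Psmg2 had 3283.5 and 3162.1 against 2270.7 and 3225.3, and the genotypes overlapped. The 2 genes that share only the letters, Psmc3ip and Psme3ip1, overlapped between genotypes as well (log2 0.54 ± 0.56 and -0.15 ± 0.40 SE).

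Other probe sets of the same genes gave mostly the same direction. Of 18 members with at least 2 probe sets past the filter, 14 had the same sign on all of them and 4 did not (Psma5, Psmc2, Psmd4 and Psmd11). When each probe set was tested on its own, 0 of the 70 member probe sets were called (beside 4 of 12453 in all, 0.0321%) and 2 had an unadjusted p under 0.05 (beside 5.67% of all). These were the second Psme4 probe set above and a second probe set of the ATPase Psmc4, named here after its values were seen. That one had 2451.2 and 1104.3 against 536.5 and 640.4 (log2 -1.40 ± 0.43 SE, limma adjusted p 0.55 over 12453 probe sets), whereas the brightest probe set of Psmc4 had 4281.1 and 5916.7 against 4264.8 and 5899.2, a log2 difference of -0.00 ± 0.33 SE. The brightest probe sets of Psma6 and Psmc2 are of a type that the array's design marks as open to cross-hybridisation. The brightest of Psmd11 and the second of Psme4 are of a type marked as shared between transcripts.

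**Figure D4:**
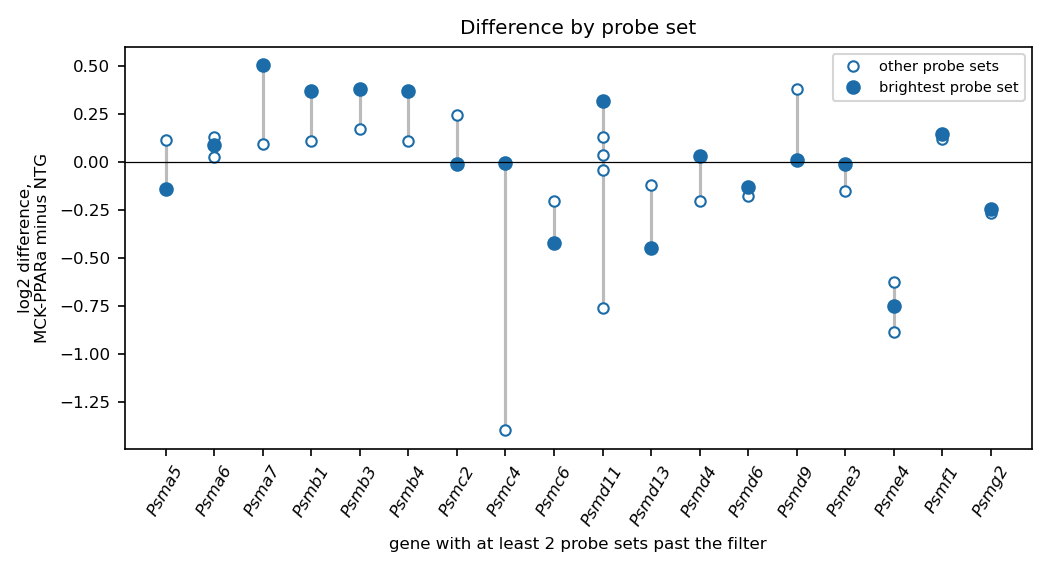
Log2 difference between MCK-PPARa and NTG (vertical axis) for each probe set past the filter of the 18 members with at least 2, with the brightest probe set filled, the others open and a grey line over their range. The 3 Psme4 probe sets lie at -0.62 to -0.88, while the 2 of Psmc4 lie at -0.00 and -1.40.

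Differences between arrays of 1 genotype were of the same order as those between genotypes. The replicate 1 array minus the replicate 2 array had the same sign in both genotypes for 33 of 47 members (70.2%, beside 68.4% of all genes). As a description, these differences correlated with r 0.57 over the 47 genes and 0.47 over all genes, on arrays that share their number in the labels only. Psmb2, a structural beta subunit singled out after its values were seen, had 8848.2 on NTG replicate 1 and 2248.8 on replicate 2, and 9213.7 and 3865.8 on the MCK-PPARa arrays. Its replicate difference exceeded 1 in both genotypes (log2 1.95 and 1.24), and its genotype difference was 0.41 ± 0.65 SE. The deubiquitinase Psmd14 had the same order, with 5906 and 3228.8 in NTG against 5011.1 and 2927.6 in MCK-PPARa. Psme4 had the opposite order, with replicate 2 the higher in both genotypes.

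**Figure D5:**
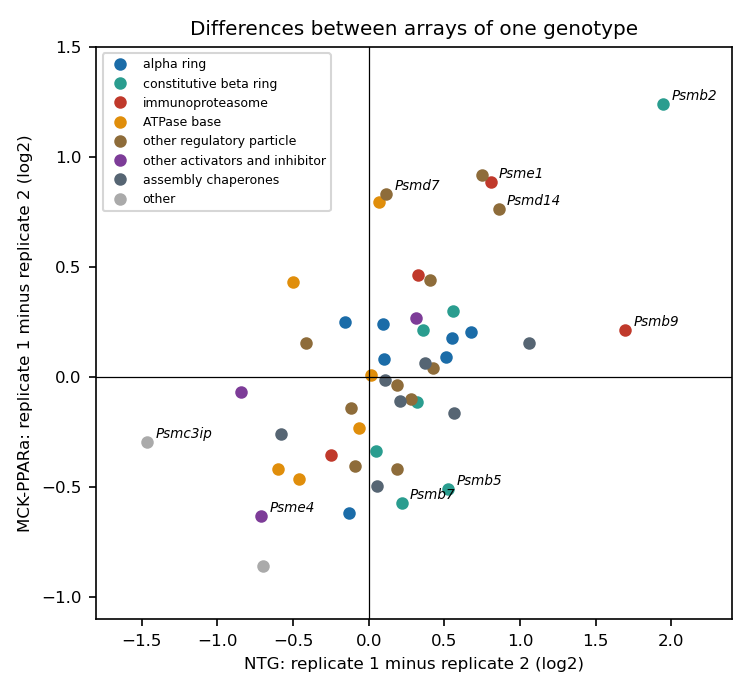
Log2 difference between the replicate 1 and replicate 2 arrays in NTG (horizontal axis) against the same in MCK-PPARa (vertical axis), 1 point per proteasome gene past the filter, coloured by class. Psmb2 lies at the upper right (1.95 and 1.24), and Psmb9 is far apart in NTG (1.69) and close in MCK-PPARa (0.21).

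Related genes of protein degradation were read from 8 lists, and no gene of any list was called. Among 7 proteasome-bound proteins and assembly factors the median was -0.13. Akirin2, which brings proteasomes into the nucleus, was lower on both transgenic arrays, with 4950 and 5170.2 against 2589.8 and 3027.7 (log2 -0.84 ± 0.29 SE, unadjusted p 0.0205, limma adjusted p 0.65). Pomp, the assembly factor of the core particle, overlapped (log2 0.05). The 8 regulators of proteasome genes had a median of 0.27, with 6 above 0. Nfe2l1, the factor that restores proteasome gene transcription when the protease is inhibited, had 7394.7 and 3979.6 against 8101.1 and 6681.8 (log2 0.43 ± 0.37 SE), and Nfya, a subunit of the CCAAT-binding factor, had 419.9 and 584.1 against 669.5 and 1103.8 (log2 0.72 ± 0.44 SE). Of the list of ubiquitin and its activating enzymes only Fau, a ubiquitin-like protein fused to a ribosomal protein, gave a value (log2 0.46 ± 0.69 SE). The ubiquitin genes and activating enzymes themselves were not analysed here.

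Upstream of the protease, 9 of 11 muscle ubiquitin ligases and conjugating enzymes were below 0 (55.5% of all genes were above 0), with a median of -0.32. On both transgenic arrays 5 were lower and 1 higher, beside 13.8% and 20.4% of all genes. Trim54, a sarcomere-bound ligase, had 23620.9 and 20563 against 14045.4 and 13619.8 (log2 -0.67 ± 0.29 SE, limma adjusted p 0.85). The conjugating enzyme Ube2d1 had 16930.7 and 12997.9 against 12413.7 and 6549.8 (log2 -0.71 ± 0.38 SE). The atrophy ligase Fbxo32, added after its values were seen, had 2715.2 and 1707.3 against 3465.2 and 1245, with the genotypes overlapping. The 10 genes of the unfoldase p97 and the shuttle factors had a median of -0.20, and the shuttle Ubqln2 had 2418.6 and 3007.3 against 1837.8 and 1094.2 (log2 -0.90 ± 0.35 SE, limma adjusted p 0.76).

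The other proteolytic systems also gave no call. The 21 autophagy and lysosome genes had a median of -0.05 with 10 above 0, where Gabarapl1, an autophagosome protein, had 2258.8 and 1926 against 2921.4 and 3606.2 (log2 0.62 ± 0.30 SE). Lamp2, a lysosomal membrane protein, had 4525.8 and 4717 against 3842.1 and 1842.6 (log2 -0.78 ± 0.39 SE), and Becn1, which starts autophagosome formation, had 2542.6 and 3806.4 against 1622 and 2271.3 (log2 -0.68 ± 0.34 SE). The 5 genes of the calpain system, calcium-dependent proteases, had a median of -0.32. Capn3, the muscle calpain, had 8720.8 and 20172.5 against 5177.4 and 7560.8 (log2 -1.08 ± 0.44 SE, unadjusted p 0.0402, limma adjusted p 0.80), lower on both transgenic arrays. The 17 interferon and class I antigen-processing genes, which act with the immunoproteasome, had a median of -0.04 with 8 above 0. The interferon gamma receptor chain Ifngr2 had 4982.3 and 4122.9 against 3481.3 and 1930.2 (log2 -0.79 ± 0.36 SE), and the peptide transporter chain Tap2 had 856.1 and 740.6 against 946.4 and 1381.8 (log2 0.49 ± 0.36 SE).

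Promoter windows of 300 bases (250 before and 50 after the start) were used for 40 of the 48 members and for 27025 genes in all. For the members, but not for all genes, 1 chromosome was left out. In these windows 9 motifs were searched on both strands. The letters CCGGAAG, the core bound by ETS factors, were in 16 of the 40 members (40%, beside 9.93% of all genes). They were in 9 of 14 regulatory particle genes, 1 of 11 core particle genes and 0 of 4 immunoproteasome genes. TGACNNNGC, the core of the antioxidant response element through which Nfe2l1 acts, was in 15% of members and 13.99% of all genes. The members were Psmb5, Psmb6, Psmc6, Psmd9, Psmd12 and Psme4, whose differences lay between -0.75 (Psme4) and 0.67 (Psmb5). Psmb5 has TGACGTCGC in the sequence shown above. The interferon-stimulated element, searched as GAAA, any 2 bases and GAAA, was in 12.5% of members and 3.99% of all genes. These members were Psmb3, Psmd4, Psmd9, Psme1 and Psmg4, whose differences lay between -0.00 (Psme1) and 0.63 (Psmg4).

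TTCNNNGAA, the gamma-activated sequence, was in 7.5% beside 9.55% and included Psmb8. The direct repeat bound by PPAR with RXR, AGGTCA repeated after any single base, was in 0 of 40 members and 0.0481% of all genes, and the single site AGGTCA, which every such repeat also holds, was in 25.0% beside 18.1%. CCAAT was in 37.5% beside 41.1%, GGGCGG (the GC box) in 57.5% beside 38.2%, and the κB element (GGGA, any 4 bases and CC) in 27.5% beside 22.9%. A match is a match of letters and was not tested for binding.

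Of the members with a window, 7 start head to head with another gene, and 4 of those neighbours were tested. Psma2 and Mrpl32, which share the second stretch shown above, were each higher on both transgenic arrays by a small margin: Mrpl32 had 3475.6 and 3336.1 against 3760.3 and 3706.2 (log2 0.13 ± 0.28 SE, beside 0.10 for Psma2). Psmd13 lay 84 bases from Sirt3, a mitochondrial deacetylase, which had 715.5 and 1081.3 against 799.4 and 758.9 (log2 -0.16 ± 0.37 SE, beside -0.45 for Psmd13). Tap1 beside Psmb9 is given above, and Rspry1 beside Psme3ip1 differed by 0.06.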

How the data were processed

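Total RNA from 4 gastrocnemius samples (2 NTG, 2 MCK-PPARa) was hybridised to 1-colour Affymetrix mouse arrays, and the authors deposited 1 intensity per probe set (22690 probe sets), made with MAS5 per the submitters' processing notes. The sources used here give neither the version nor detection calls, and the number of arrays limits the precision. The 2% trimmed means were 1500.56 to 1500.68, so no further scaling was applied. Of the probe sets, 64 were controls, 20380 had 1 gene symbol in the platform annotation, 691 several and 1555 none.

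Signals were taken as log2(signal + 64.16), the offset being 10% of the median of all values, which understates the change of dim genes. Probe sets with a mean at or above the 40th percentile (455.3) were kept, the brightest per gene was used, and 8402 genes were fitted with limma 3.58.1 in R 4.3.3 (lmFit and eBayes with a variance trend, 2 residual degrees of freedom), with Benjamini-Hochberg adjustment. The script was tested on simulated data. With 2 arrays per group, the smallest two-sided exact permutation p is 0.333, so single genes were not tested that way. Class medians are descriptions without a test. Members, classes and lists were chosen with earlier results of these data known. Members named were those past the threshold, the immunoproteasome and catalytic subunits, and up to 5 of each class or related list by unadjusted p (3 for cell type lists). Some others fell outside this rule, among them Psmd14, Pomp and genes named for their probe sets, motifs or neighbours. Ppara was always named. Alternatives covered the offset, the filter, the scaling, the choice of probe set, the variance trend, the replicate block and each array left out. Promoters came from the RefSeq table (GRCm38.p6).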

Additional observations from a re-analysis of the deposited data

How the results depend on the processing

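The count of proteasome genes called was 0 under every alternative run, with a lowest limma adjusted p of 0.085 (Psme4, replicate block). The test of each probe set on its own, chosen after seeing the data, gave a lowest adjusted p of 0.55 among member probe sets. The count over all genes was 5. It was 2 after quantile normalization, 1 after median centring, 16 with the mean of all probe sets, 3 without the variance trend, and 72 to 150 when 1 array was left out. The replicate number was used as a block because both genotypes carry numbers 1 and 2, though the labels do not say what the numbers mark and there are only 2 pairs. With the replicate block 211 genes (2.51%) were called, Ppara (adjusted p 0.00085) among them, and 5 members (10.6%, beside 15% of all genes) had an unadjusted p under 0.05, and same-numbered arrays deviated together with r 0.469 over all genes. The cause was not tested.

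The median over all members was 0.0039 at a filter at the 60th percentile and -0.013 after median centring, which moves all genes by -0.10. That over the regulatory particle was -0.11 after median centring and -0.084 with the mean of probe sets. With 1 array left out it lay between -0.0084 and 0.080, that of the core particle between 0.13 and 0.36 and that of the immunoproteasome between -0.011 and 0.42.

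Of 451 values for 35 named members under 13 alternatives, 428 kept their direction without passing the threshold and 23 in 15 members took the opposite sign. These were Psmb6 0.015, Psmc2 0.029 and Psme1 0.041 with quantile normalization, and Psmc2 0.12 and Psmd11 -0.063 with the mean of probe sets. With 1 array left out, values spanned 0 for Psma3 (-0.41 to 0.14), Psma4 (-0.070 to 0.55), Psma5 (-0.48 to 0.20), Psmb10 (-0.31 to 0.042), Psmb6 (-0.21 to 0.13), Psmb8 (-0.065 to 0.40), Psmc2 (-0.31 to 0.29), Psmc3ip (-0.20 to 1.3), Psmc5 (-0.13 to 0.66), Psme1 (-0.45 to 0.44), Psme3 (-0.16 to 0.15), Psme3ip1 (-0.58 to 0.28), Psmf1 (-0.27 to 0.57) and Psmg2 (-0.49 to 0.0013). The 2 arrays per group limit every one of these values.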
